A study of Mus musculus with 6 samples.

Results

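Genes of cell division were examined in whole blood RNA of mice kept in an enriched environment (EE) or a standard environment (SE). The set holds 36 genes that serve DNA replication and mitosis, and each gene was represented by the probe set that names it alone and has the highest mean over the 6 arrays, with no minimum of expression. Of the 36 genes, 35 had such a probe set, out of 22184 genes measured this way, and the expression of Ccnb1 (cyclin B1) was not analysed here. Both groups were male CD1 mice, an outbred stock, labelled as 9 weeks old, and both were housed for 2 weeks in their enclosure without an inflammatory insult. The SE enclosure was a standard cage with wood chip bedding and nesting material. The EE enclosure was larger and also held a wheel, a nest house and a tunnel. Each group had 3 mice, and blood taken by cardiac puncture from each mouse was measured on its own Affymetrix whole-transcript array. All values are on the log2 scale of the robust multiarray average (RMA), which gives all arrays nearly one distribution of values. A log2 fold change is the EE mean minus the SE mean, and a p not called adjusted is the unadjusted p of limma, taken at the 0.05 of the methods. The methods also asked for a fold change over 2, which is counted separately.

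Dividing cells copy their DNA in S phase, using the MCM helicase, the sliding clamp PCNA and enzymes that supply deoxynucleotides. They then enter mitosis under cyclin-dependent kinase 1, build a spindle of microtubules, and separate their chromosomes once the anaphase-promoting complex has marked cyclins and other proteins for destruction. Most blood leukocytes rest outside the cycle, and red cells enter the blood as reticulocytes, which have already expelled their nucleus. Many mitotic genes are held down in resting cells through a promoter element named the cell cycle genes homology region (CHR), which works with CCAAT boxes nearby, and many S phase genes carry sites for the E2F factors.

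The promoters of the 2 members with the smallest p among those with lower EE means, Nusap1 and Ube2c, and of the 2 with the smallest p among those with higher EE means, Cdc20 and Mcm2, are shown because the first pair carries the main difference and the second pair, of the opposite sign, was not called. Each runs from 250 bases before to 50 bases after the start of the gene in RefSeq (GRCm38.p6), 5′ to 3′ on the strand of the gene, with matches to the CHR (TTTGAA or TTCGAA) and the CCAAT box (CCAAT), on either strand, in capitals. Matches that overlap, such as the pair of CCAAT boxes on opposite strands in the Ube2c promoter, run together.
Nusap1, chr2:119618048-119618347, plus strand: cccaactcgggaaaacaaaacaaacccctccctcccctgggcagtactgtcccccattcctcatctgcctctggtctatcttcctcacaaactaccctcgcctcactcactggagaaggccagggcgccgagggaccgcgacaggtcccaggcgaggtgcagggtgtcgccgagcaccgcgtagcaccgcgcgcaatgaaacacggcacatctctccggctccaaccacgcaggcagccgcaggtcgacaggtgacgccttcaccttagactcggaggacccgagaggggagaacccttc
Ube2c, chr2:164769679-164769978, plus strand: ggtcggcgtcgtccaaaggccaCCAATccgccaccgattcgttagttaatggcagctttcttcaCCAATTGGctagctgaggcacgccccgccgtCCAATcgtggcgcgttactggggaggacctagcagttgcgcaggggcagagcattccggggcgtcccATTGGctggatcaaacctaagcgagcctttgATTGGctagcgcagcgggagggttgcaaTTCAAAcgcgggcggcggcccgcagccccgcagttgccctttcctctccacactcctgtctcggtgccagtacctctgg
Cdc20, chr4:118437294-118437593, minus strand: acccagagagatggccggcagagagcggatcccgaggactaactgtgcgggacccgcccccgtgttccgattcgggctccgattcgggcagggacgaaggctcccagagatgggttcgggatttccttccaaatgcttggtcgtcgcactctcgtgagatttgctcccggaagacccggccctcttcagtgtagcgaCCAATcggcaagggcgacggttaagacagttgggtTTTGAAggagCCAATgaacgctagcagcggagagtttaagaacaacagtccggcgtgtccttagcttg
Mcm2, chr6:88898731-88899030, minus strand: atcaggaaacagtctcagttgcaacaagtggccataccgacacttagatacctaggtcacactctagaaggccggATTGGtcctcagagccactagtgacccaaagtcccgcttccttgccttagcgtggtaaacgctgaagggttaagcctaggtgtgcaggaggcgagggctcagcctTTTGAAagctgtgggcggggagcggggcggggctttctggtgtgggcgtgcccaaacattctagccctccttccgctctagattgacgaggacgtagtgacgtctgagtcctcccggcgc
The Ube2c window held 1 CHR and 6 CCAAT matches, that of Cdc20 held 1 and 2, and that of Mcm2 held 1 and 1. The Nusap1 window held 0 of either.
A promoter was on hand for 31 of the 36 members, Ccnb1 included. Of the 21 mitotic members with a promoter, 17 (81.0%) held both a CHR and a CCAAT match, against 7.52% of all 32851 promoters of this length. Of the 10 replication members (the MCM subunits, Pcna and the deoxynucleotide enzymes), 2 (20.0%) held both. Matches to the E2F site (TTTCCCGC, TTTCGCGC, TTTGCCGC or TTTGGCGC, either strand) were found for 4 of the 10 replication members and 1 of the 21 mitotic members, against 2.26% of all promoters. A member counted if any of its promoters held the match, whereas the shares over all promoters count each promoter. Mcm7, with 2 promoters, held CHR and E2F matches in 1 of them only. A match says only that the letters are there. Of the called members described next that have a promoter, Ube2c and Mki67 held CHR matches while Nusap1 and Mcm5 did not.

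Nusap1, Ube2c, Mki67, Tpx2 and Mcm5 were lower in EE mice at an unadjusted p under 0.05 from limma, which is 5 of 35 members (14.3%), and 0 were higher. Among all 25341 probe sets tested, 1.73% were lower and 1.59% higher at this threshold. For the same 5 genes every EE mouse lay below every SE mouse, where 4.16% of all probe sets did so. The members were chosen with earlier results of these data known, so these shares describe the set and do not test it. No member passed an adjusted p of 0.05 from limma over all probe sets, and 0% of the probe sets tested did. None of the 5 had a fold change over 2, which 0.0197% of the probe sets met while lower and 0.0355% while higher at an unadjusted p under 0.05. The median log2 fold change of the members was -0.09, against 0.00 over all probe sets tested, and 29 of the 35 members had a negative value. Among the 25341 probe sets, 12590 were negative. This sign count of the members depended on single mice. It fell to 22 once SE mouse 1 was dropped and to 23 once EE mouse 2 was dropped. Dropping any other mouse gave 26 to 28. Leaving out the 5 called genes, the median of the other 30 was -0.04. The number of members called lower was 2 without SE mouse 1 and 3 without EE mouse 2, and the other single mice left it between 4 and 6. With the expression minimum of the methods (a mean of 100 on the linear scale), 14 members and 6154 probe sets remained, with 3 members called lower against 3.14% of the probe sets.

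Nusap1 encodes a microtubule-binding protein that bundles spindle fibres around chromosomes. It lay at 8.66, 8.74 and 8.60 in SE mice 1 to 3 and at 7.61, 7.97 and 7.93 in EE mice 1 to 3. The groups were thus separated by a gap wider than the spread within either. The group means were 8.67 ± 0.07 (SD, n = 3) in SE mice and 7.84 ± 0.20 (SD, n = 3) in EE mice. Its log2 fold change was -0.83 (limma, standard error 0.13, unadjusted p = 0.000171, adjusted p = 0.799), so that the level fell by 43.7% in EE mice. By p it ranked 5 among the 25341 probe sets tested. It was called in each of the alternative fits and without each single mouse. A probe set shared by Nusap1 and Oip5, and assigned to neither, lay lower on the array, between 3.64 and 4.33, and had a value of -0.14 (limma, standard error 0.20, unadjusted p = 0.514), and was not called.

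Ube2c encodes the ubiquitin-conjugating enzyme that works with the anaphase-promoting complex. It was at 11.21, 11.32 and 11.08 in SE mice 1 to 3 and at 10.68, 10.71 and 10.81 in EE mice 1 to 3. The EE mice lay close together and all below the SE mice. EE mice differed by -0.47 on the log2 scale (limma, standard error 0.12, unadjusted p = 0.00319, adjusted p = 1.00), so that the level fell by 27.9%. This call too was kept in each alternative fit and without each single mouse. Cdc20, which activates the same complex, was not called, with values of 6.21 to 6.39 in SE mice and 6.25 to 6.38 in EE mice. Its log2 fold change of 0.05 had a 95% confidence interval of -0.21 to 0.30. Bub1 and Bub1b, kinases of the spindle checkpoint that holds this complex back, had log2 fold changes of -0.02 and -0.09, and Cdca3, an adaptor for protein destruction at mitotic entry, had a value of -0.06.

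**Figure D1:**
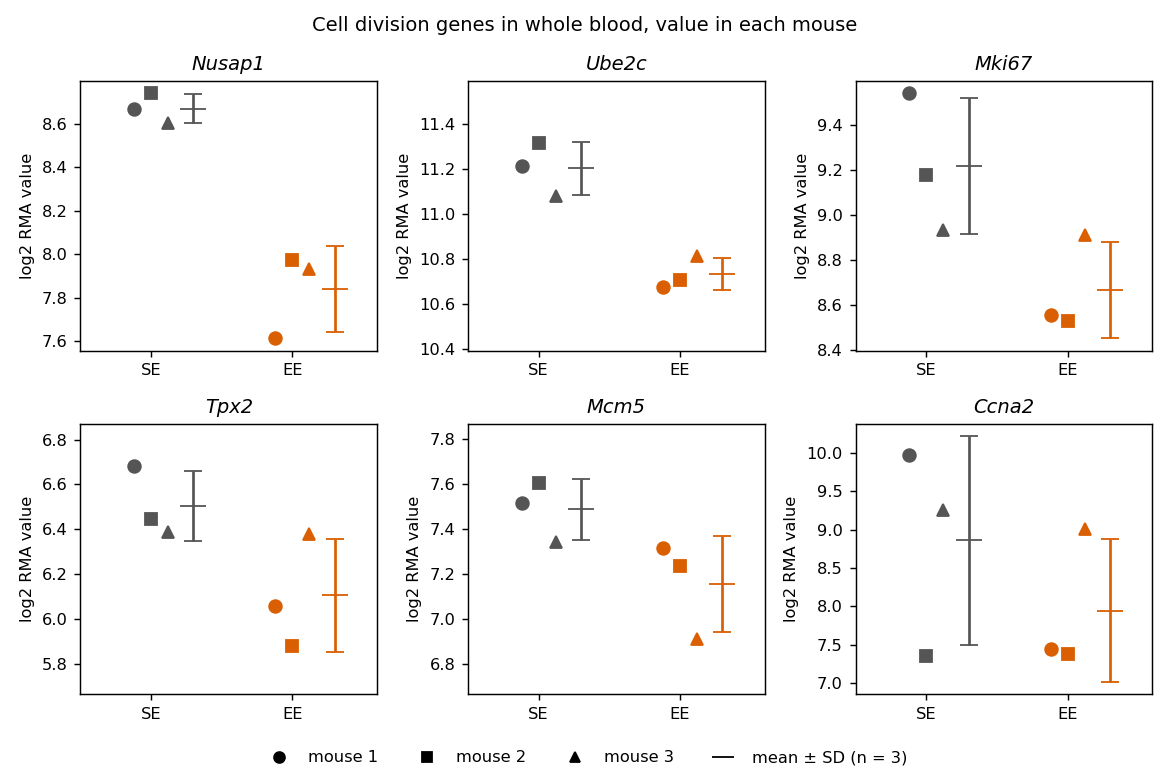
Log2 RMA value (y axis) of 6 cell division genes in each SE and EE mouse (x axis, marker shape for the mouse number), with the mean ± SD (n = 3) beside the points. The groups do not overlap for Nusap1, Ube2c, Mki67, Tpx2 and Mcm5, with a gap that is wide for Nusap1 and small for Mki67, Tpx2 and Mcm5, whereas Ccna2 lies at 2 levels that both occur in each group.

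Mki67, whose product Ki-67 coats mitotic chromosomes and is the usual marker of cycling cells, lay at 9.54, 9.18 and 8.93 in SE mice 1, 2 and 3. In EE mice 1, 2 and 3 it lay at 8.55, 8.53 and 8.91. The highest EE mouse and the lowest SE mouse were almost level. The difference was -0.55 on the log2 scale (limma, standard error 0.18, unadjusted p = 0.0135, adjusted p = 1.00). Without SE mouse 1 it was -0.39 (limma, unadjusted p = 0.0507) and the gene was not called. Of the other genes of kinetochores and chromosomes none was called. Top2a, the topoisomerase that untangles sister chromosomes, was highest in SE mouse 1 at 5.83 and lay between 4.91 and 5.30 in the other mice, which gave a log2 fold change of -0.33 and a standard error of 0.21. The passenger complex genes Birc5 and Cdca8 and the kinetochore genes Cenpe and Cenpf had log2 fold changes between -0.04 and 0.04. For Birc5 the values spread over 4.78 to 5.79 within the EE mice alone.

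Tpx2, a spindle assembly factor that activates Aurora A kinase, was at 6.68, 6.45 and 6.39 in SE mice 1 to 3 and at 6.06, 5.88 and 6.38 in EE mice 1 to 3. EE mouse 3 almost reached the lowest SE mouse. This gave a log2 fold change of -0.40 (limma, standard error 0.16, unadjusted p = 0.0315, adjusted p = 1.00). The call was lost without SE mouse 1 (limma, unadjusted p = 0.110), SE mouse 2 (0.0559), EE mouse 1 (0.0792) or EE mouse 2 (0.121), but not without SE mouse 3 or EE mouse 3. All 7 measured spindle motors and microtubule proteins differed in the negative direction, by a median of -0.15, and 2 of them, Nusap1 and Tpx2, were called. Kif11, the motor that pushes spindle poles apart, lay at 5.97, 5.82 and 5.67 in SE mice 1 to 3 and at 5.44, 5.41 and 5.74 in EE mice 1 to 3. EE mouse 3 lay among the SE mice, and Kif11 missed the threshold with all mice (log2 fold change -0.29, limma, standard error 0.14, unadjusted p = 0.0702) and passed it without EE mouse 3 (-0.39, limma, unadjusted p = 0.0135). The motors of the central spindle, Kif20a and Kif23, the crosslinker Prc1 and the microtubule-binding receptor Hmmr had values between -0.15 and -0.03 and were not called.

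Of the 6 measured cyclins and mitotic kinases none was called. Ccnb2 (cyclin B2), an activator of cyclin-dependent kinase 1, was at 8.29, 7.69 and 7.88 in SE mice 1 to 3 and at 7.49, 7.59 and 7.72 in EE mice 1 to 3. EE mouse 3 overlapped SE mouse 2. Its log2 fold change was -0.36 (limma, standard error 0.17, unadjusted p = 0.0613), and it passed the threshold without SE mouse 2 (-0.49, limma, unadjusted p = 0.0230) or without EE mouse 3 (-0.42, limma, unadjusted p = 0.0462). Cdk1, the kinase itself, had a log2 fold change of -0.02 with a 95% confidence interval of -0.41 to 0.37. Polo-like kinase Plk1 had a value of -0.15, and Aurka and Aurkb, the Aurora kinases of spindle poles and of the passenger complex, had values of -0.04 and 0.00. Aurka was the steadiest of these, between 5.67 and 5.79 in all 6 mice.

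Ccna2 (cyclin A2), which drives both S phase and entry into mitosis, varied most between mice. It lay at 9.97, 7.35 and 9.26 in SE mice 1 to 3 and at 7.45, 7.37 and 9.02 in EE mice 1 to 3. The values formed 2 levels, 7.35 to 7.45 and 9.02 to 9.97, and each group held mice of both. The log2 fold change between the groups was -0.92 (limma, standard error 0.65, unadjusted p = 0.197), with a 95% confidence interval of -2.41 to 0.58. Without SE mouse 2, the SE mouse at the lower level, it was -1.67 (limma, unadjusted p = 0.0107), so that the outcome for Ccna2 rested on this mouse.

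**Figure D2:**
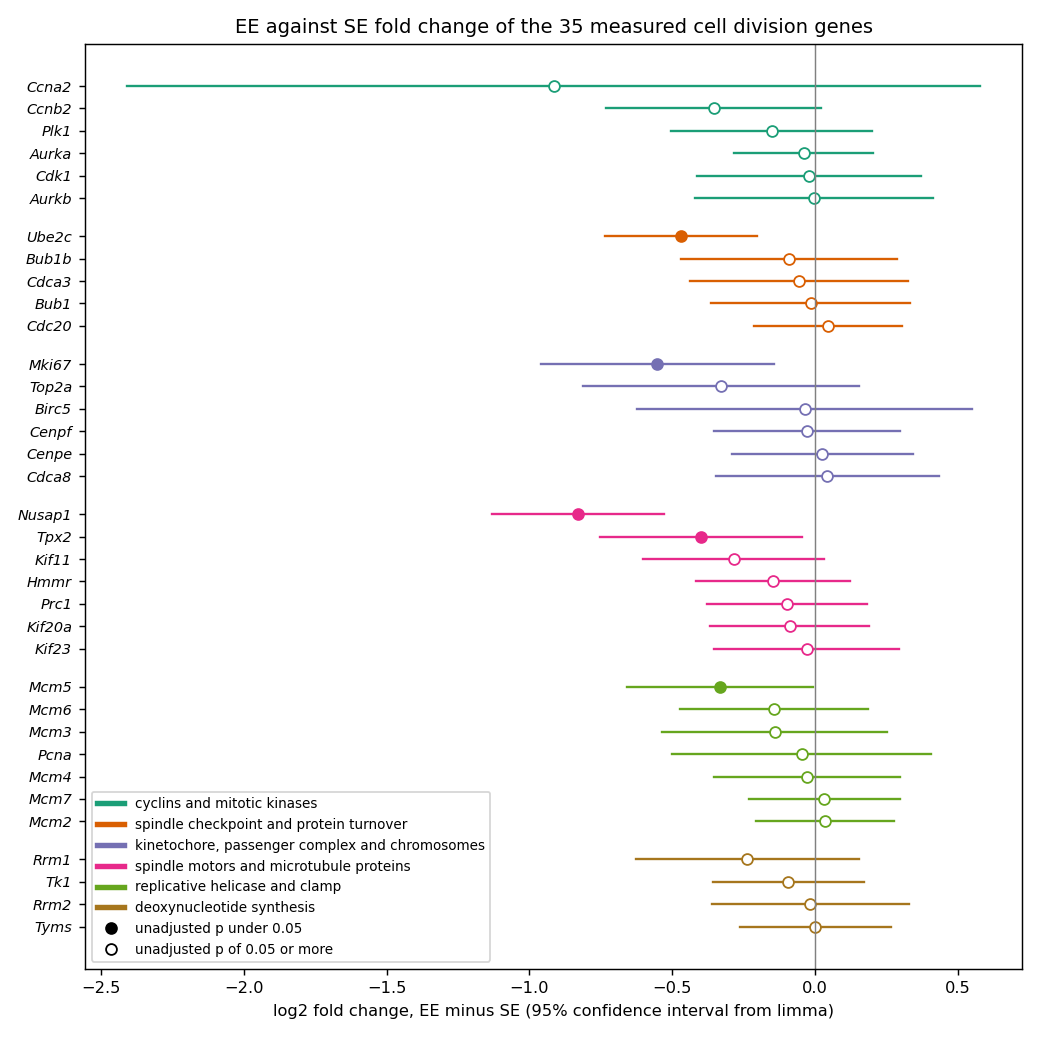
Log2 fold change, EE minus SE (x axis), of each of the 35 measured cell division genes (y axis, coloured by role group), with the 95% confidence interval from limma and filled points for an unadjusted p under 0.05. The 5 filled points all lie left of 0, Nusap1 at -0.83 has the interval farthest from 0, and the interval of Ccna2 runs from -2.41 to 0.58.

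Of the 7 measured genes of the replicative helicase and clamp, 1 was called lower and 0 higher. Mcm5, a subunit of the MCM helicase, lay at 7.52, 7.60 and 7.34 in SE mice 1 to 3 and at 7.32, 7.24 and 6.91 in EE mice 1 to 3. The highest EE value was just under the lowest SE value. On the log2 scale the EE mean minus the SE mean was -0.33 (limma, standard error 0.14, unadjusted p = 0.0462, adjusted p = 1.00). The call was lost without SE mouse 1 (limma, unadjusted p = 0.102), SE mouse 2 (0.145), EE mouse 2 (0.0595) or EE mouse 3 (0.115). It was also lost with the expression minimum of the methods (limma, unadjusted p = 0.0634) and with every probe set fitted (0.0580). Subtracting array medians, or another variance model in limma, lost the call too. The other MCM subunits sit with Mcm5 in a single ring of 6 proteins, and none of their genes was called. Mcm2, Mcm4 and Mcm7 had log2 fold changes of 0.03, -0.03 and 0.03, and Mcm3 and Mcm6 had values of -0.14 and -0.14. For Mcm2 the 95% confidence interval ran from -0.21 to 0.28.

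In EE mouse 3 the replication members took the lowest value more often than in any other mouse. Of the 11 replication members, 6 were lowest in this mouse, and 5 of these belonged to the helicase and clamp. The same share over all probe sets was not counted. Of 43 replication genes outside the set, 11 were lowest in EE mouse 3 and 10 in EE mouse 2, with a median of -0.09 from the SE mean in EE mouse 3. Pcna, the sliding clamp, lay at 7.83 in EE mouse 3 and at 8.30 to 8.57 in the other 5 mice. Rrm1, the large subunit of ribonucleotide reductase, lay at 6.17 against 6.69 to 6.90. Pcna and Rrm1 were thus close together in 5 mice and apart in 1. Without EE mouse 3, the log2 fold change of Pcna changed from -0.05 to 0.19 and that of Rrm1 from -0.24 to -0.04, with neither called. The mitotic members did not share this, with 1 of 24 lowest and 7 highest in EE mouse 3, while 13 were highest in SE mouse 1. Rrm2, the partner subunit of Rrm1, and Mcm2 were highest in EE mouse 3, at 5.49 and 6.83. Tyms and Tk1, which make thymidylate, lay between 6.80 and 7.03 and between 6.05 and 6.32 over all mice. None of the 4 deoxynucleotide genes was called.

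EE mouse 3 also stood apart over the whole array. Its mean correlation with the other arrays across the probe sets tested was 0.977, where the other arrays lay at 0.985 to 0.988, and 8255 of all probe sets lay at or above 100 on the linear scale, against 9027 to 9336. B cell markers were at a median of -0.89 from the SE mean in this mouse (14 genes), against -0.32 to 0.17 in the other mice. T cell markers were at -0.59 (13 genes), against -0.19 to 0.49. Markers of natural killer cells (0.63, 10 genes), monocytes (0.58, 10 genes) and platelets (0.64, 11 genes) had their highest medians in this same mouse. The part of these in the low replication genes was not tested. Without EE mouse 3, 6 members were called lower (Nusap1, Ube2c, Mki67, Tpx2, Kif11 and Ccnb2), against 3.59% of all probe sets.

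**Figure D3:**
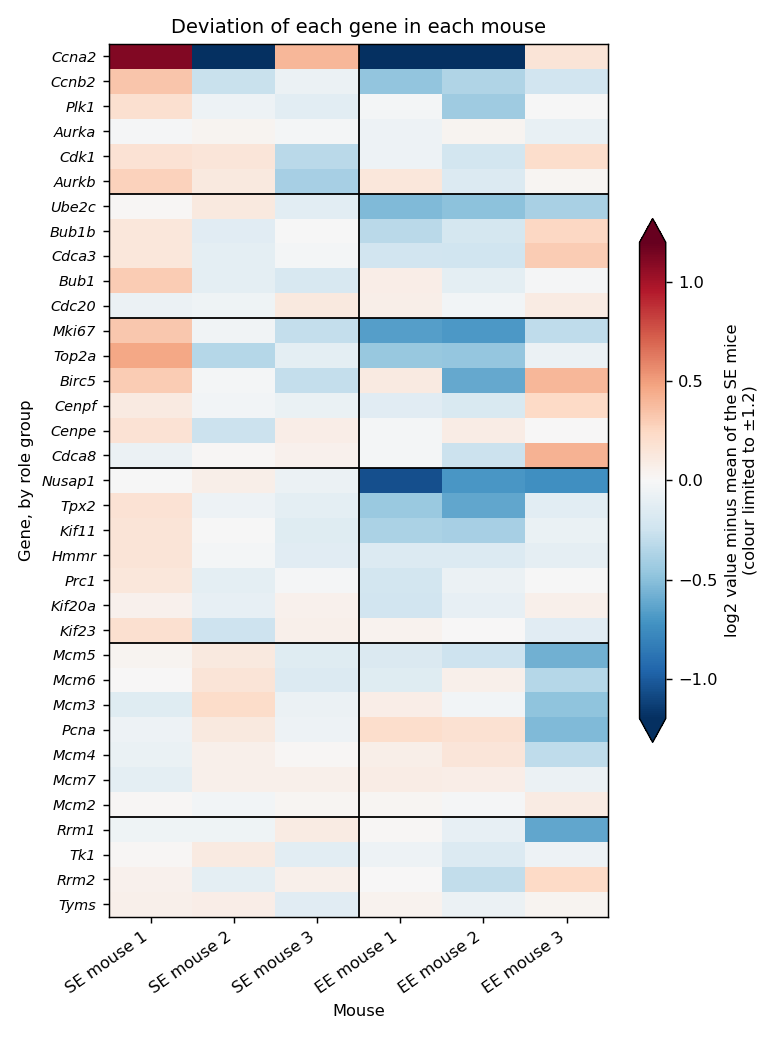
Difference of each measured gene (rows, by role group) in each mouse (columns) from the SE mean on the log2 scale, from blue (lower) to red (higher), with the colour limited to ±1.2. The rows of Nusap1, Ube2c and Mki67 are blue in the 3 EE mice, Ccna2 is dark blue in SE mouse 2 and EE mice 1 and 2 and red in the other mice, and 5 of the 7 helicase and clamp rows are lowest in EE mouse 3.

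Of the 14 members with a mean of at least 100 on the linear scale 4 were called lower, and of the 21 below it 1 was, Tpx2. Calls were also more frequent at this level over the whole array, with 3.83% of the probe sets at or above 100 called lower and 1.06% of those below it. Values near the low end of the array carry little signal over background. Cdk1, Birc5, Bub1 and Cenpf are among the 21, with values between 4.50 and 5.97. The array medians over all probe sets were 5.03 to 5.11. The range of the log2 fold changes was -0.92 to 0.05, so no member had a mean over 0.05 higher in EE mice.

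Red cell genes were lower in the same mice. Of 15 measured markers of red cells and reticulocytes, 10 were lower in EE mice and 0 higher at an unadjusted p under 0.05 from limma. Among all probe sets tested, 1.73% were lower and 1.59% higher at this threshold. The median of these markers per mouse lay between -0.80 and -0.38 from the SE mean in the EE mice and between -0.20 and 0.23 in the SE mice. Their summed linear level ranged from 10189 to 13228 in SE mice and from 6447 to 8791 in EE mice. Without SE mouse 1 the count of lower red cell genes was 6. Among the first markers of that list, Tfrc (the transferrin receptor, for iron uptake) gave a log2 fold change of -0.06, Hemgn (an erythroid nuclear protein) a value of -0.73 and Klf1 (an erythroid transcription factor) a value of -0.19. The median of the 5 called members was -0.53, -0.63 and -0.39 in EE mice 1, 2 and 3, and the red cell median was -0.61, -0.80 and -0.38. In SE mice 1, 2 and 3 the median of these members was 0.03, 0.07 and -0.12 and the red cell median 0.23, -0.04 and -0.20. The order of the mice thus matched in the EE group and not in the SE group, and 3 mice per group are too few for an order to carry weight. These 5 members were taken for their low EE values, so their low EE medians follow from that choice. The median of the 30 members not called was -0.02, -0.14 and 0.00 in EE mice 1, 2 and 3. In SE mice 1, 2 and 3 it was 0.12, -0.04 and -0.04. The part of red cells in the lower values of the called members was not tested, and in whole blood fewer cells of a type and less RNA per cell cannot be told apart. Neutrophil markers went the other way, with 8 of 13 higher, 0 lower and a median log2 fold change of 0.58. Markers of maturing neutrophils, progenitors and plasma cells did not share a direction. Of 12 granule genes of maturing neutrophils 2 were higher and 0 lower, of 8 progenitor genes 1 was lower, and of 10 plasma cell and plasmablast genes 0 were called. Of the granule genes 10 had a positive value and 2 a negative one, and of the plasma cell genes 4 and 6. Low signal limits this, since 1 of the 12 granule genes and 1 of the 8 progenitor genes had a mean of at least 100 on the linear scale. The progenitor gene was Myb, a regulator of immature blood cells, at a log2 fold change of -0.38 (standard error 0.12), named after its value was seen. Kit, Cd34 and Flt3, surface markers of progenitors, had values of -0.02, -0.07 and 0.15. Of the 8 progenitor genes 5 had a negative value and 3 a positive one, over a range of -0.38 to 0.40.

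**Figure D4:**
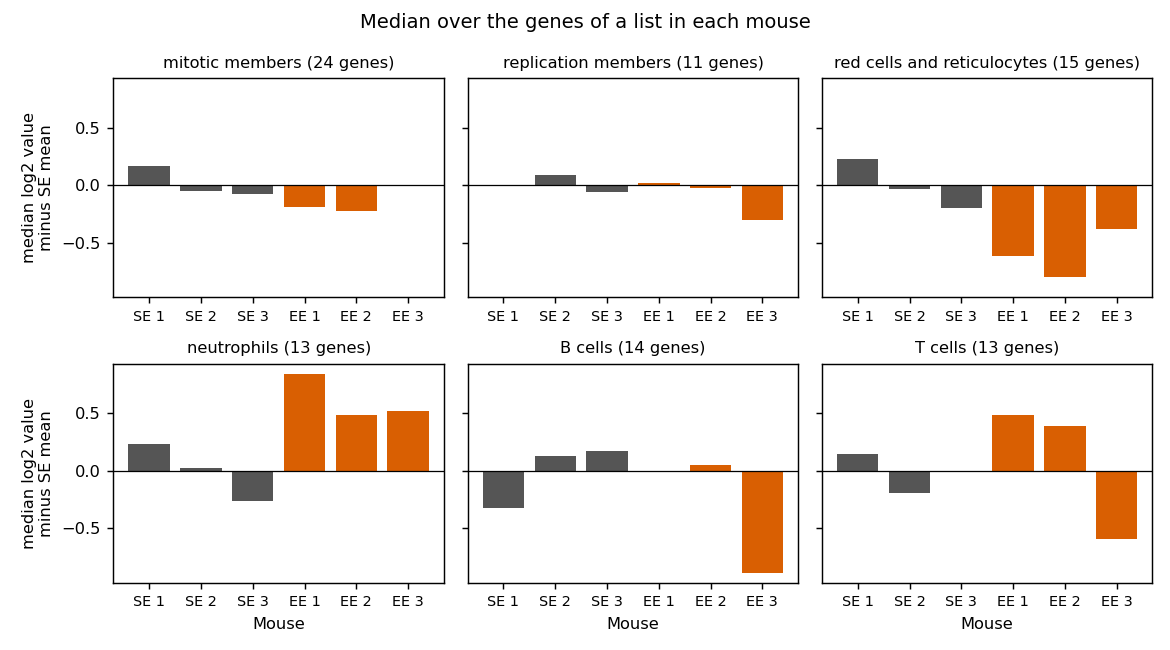
Median over the genes of a list of the log2 difference from the SE mean (y axis), in each SE (grey) and EE (orange) mouse (x axis). The mitotic members lie between -0.23 and 0.00 in the EE mice and between -0.07 and 0.17 in the SE mice, so the groups overlap. The replication members are lowest in EE mouse 3 at -0.30. The red cell list lies between -0.80 and -0.38 in the EE mice and between -0.20 and 0.23 in the SE mice.

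Other genes of the cell cycle were counted in the same way. Of 51 further mitosis genes, 5 (9.80%) were lower and 1 higher in EE mice at an unadjusted p under 0.05 from limma, with a median log2 fold change of -0.07. Over all 25341 probe sets tested the shares were 1.73% lower and 1.59% higher. The count of lower mitosis genes was 2 without SE mouse 1 or EE mouse 1 and 3 without SE mouse 3. Pttg1 (securin, which holds back separase until anaphase) lay at 7.32, 7.31 and 7.20 in SE mice 1 to 3 and at 6.54, 6.77 and 6.87 in EE mice 1 to 3, a difference of -0.55 on the log2 scale (standard error 0.13). Cdc25b, a phosphatase that activates cyclin-dependent kinase 1, lay at 11.61, 11.61 and 11.66 in SE mice 1 to 3, while EE mice 1 to 3 were at 11.28, 11.02 and 11.00, a difference of -0.53 on the log2 scale (standard error 0.12). For both genes every EE mouse lay below every SE mouse, as for 4.16% of all probe sets. Ect2, an exchange factor of cytokinesis, gave -0.55 on the log2 scale (standard error 0.18), and EE mouse 1 was its lowest mouse at 6.09. The remaining lower genes, Ttk (a checkpoint kinase) and Smc2 (a condensin subunit), had values of -0.34 and -0.40 and are named after their values were seen. The higher gene was Cdca5, a protector of sister cohesion, at a log2 fold change of 0.40 (standard error 0.11).
Of 43 further replication genes 2 (4.65%) were lower and 0 higher, against 1.73% and 1.59% of all probe sets, with a median of -0.04. The lower genes were Lig1, the DNA ligase of replication, at -0.34 (standard error 0.12) and Prim1, a primase subunit, at -0.30 (standard error 0.12). Of 35 genes that govern entry into the cycle, 2 (5.71%) were lower and 1 higher, with a median of -0.03. Tfdp2, a partner of the E2F factors, lay at 10.67, 10.53 and 10.62 in SE mice 1 to 3, while EE mice 1 to 3 were at 10.16, 10.17 and 10.29, a difference of -0.40 on the log2 scale (standard error 0.11). The cyclin-dependent kinase inhibitor Cdkn2c differed by -0.31 (standard error 0.12) and the kinase-binding protein Cks1b by 0.34 (standard error 0.13). The count of lower replication genes was 0 to 1 without any one of SE mice 1 to 3 or EE mouse 1, and that of lower entry genes was 1 without SE mouse 1, SE mouse 2 or EE mouse 1. No gene of these lists passed an adjusted p of 0.05 from limma.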

How the data were processed

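Whole blood RNA of 3 EE and 3 SE mice was measured on 6 Affymetrix arrays, and the deposited table holds log2 values for 41345 probe sets, which the authors made by RMA with the Bioconductor package affy (versions and genome build not given in the sources used here). RMA removes differences in total RNA between samples and can compress small folds. The methods and the probe annotation name different generations of the Mouse Gene ST array. Of the probe sets, 23525 name 1 gene, 1816 several and 16004 none. Those with an Entrez ID (25341) entered a limma fit without covariates (lmFit then eBayes, limma 3.58.1, R 4.3.3) with Benjamini-Hochberg adjustment over all of them. The study's fit also asked for 100 on the linear scale, which was tried as an alternative, along with the annotation filter, the summary per gene, scaling, the variance model, array weights, the mouse number as a block and each mouse left out. Each array held another mouse, so a p-value rests on the spread between mice, whose small number limits the precision, and no batch is given. The mice were housed in groups, and the labels do not say which mice shared an enclosure. Housing and a shared enclosure therefore cannot be told apart. The members and gene lists were chosen with earlier results of these data known. All members may be named, as may the 3 genes with the smallest p in each direction of each pathway list and the first 3 measured markers of a cell type. The code was tested on simulated data.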

Additional observations from a re-analysis of the deposited data

How the results depend on the processing

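No member, and none of the 33 called genes of the other lists, changed its direction while called in either fit, where the lists were added to the alternatives after seeing the data. Of the 33, 1 to 11 lost the call with 1 mouse left out, and 0 to 3 in the other alternatives, where the expression minimum fits 23 of them. The number of probe sets at an unadjusted p under 0.05 from limma was 404 higher and 439 lower in EE mice. It was 90 and 193 with the expression minimum, 863 and 1019 with array weights, 599 and 949 (2.30% lower) with every probe set fitted, with or without an Entrez ID, and 522 and 388 after another quantile normalization. It ranged from 292 to 905 higher and from 363 to 910 lower when 1 mouse was left out, the highest being without EE mouse 3. The number of members called lower, 5, was 3 with the expression minimum, which fits 14 members, and 2 to 6 with 1 mouse left out, and their median log2 fold change of -0.09 was -0.19 with that minimum. The cause was not tested for the other settings. Nusap1 and Ube2c were called in all 15 alternatives, Mki67 in 14, Tpx2 in 9 and Mcm5 in 7. The number of probe sets at an adjusted p under 0.05 was 0 in each of them, and the lowest adjusted p of a member was 0.151, with array weights. Up to 9 members that were called in neither fit changed the sign of their log2 fold change, the most without SE mouse 1. Mouse numbers showed no sign of pairing the mice, though 3 mice per group cannot exclude it. The correlations of deviations between same-numbered mice were 0.00, -0.01 and -0.04, and 0 mice correlated best with their own number. The fit with the mouse number as a replicate block called 397 probe sets higher and 435 lower and the same 5 members. Array signal limits the 21 members with a mean under 100 on the linear scale.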

Other observations

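Ccna2 was set against the rest of the array for its 2 levels, a comparison chosen after its values were seen. Of the 25341 probe sets tested, 2 had 3 mice separated from the other 3 by a gap of at least 1.5 on the log2 scale that was also their widest gap, and Ccna2, with a gap of 1.57, was the only one with SE mice 1 and 3 and EE mouse 3 at the upper level. At a gap of at least 0.5, 51 probe sets were split this way and 4 of them, Ccna2 included, had the same mice at the upper level. The only other member among the 51 was Nusap1, whose split followed the housing groups. Ccnb2 was highest in the same 3 mice, at 8.29, 7.88 and 7.72 in SE mice 1 and 3 and EE mouse 3, but without a wide gap to the other mice, which lay between 7.49 and 7.69. Cdk1, with a mean under 100 on the linear scale, lay between 5.45 and 5.97 over all mice.

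Rrm2 was the only member with a second probe set of its own, which lay between 2.84 and 3.09 in all 6 mice and had a log2 fold change of -0.01. Of the probe sets shared with another gene, which are named for neither, 2 are assigned to Top2a and Taf1d (log2 fold changes of -0.01 and -0.18), 1 to Tyms and its pseudogene Tyms-ps (0.08), and 2 to Mcm7 and a microRNA gene inside it, Mir25 or Mir93 (0.21 and -0.16). None of these reached an unadjusted p under 0.05 from limma.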
